A study of Mus musculus with 2 samples.

Results

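The splicing factor genes described here were the genes whose symbol in the deposited gene list starts with Srsf, Snrp, Hnrnp or Sf3, leaving out symbols that carry "-ps". This rule found 52 of 27998 genes, made up of 11 *Srsf*, 12 *Snrp*, 20 *Hnrnp* and 9 *Sf3* genes. They were measured in single cells of acute myeloid leukemias of mice, begun by a retrovirus that carries the fusion oncogene *MLL-AF9*, with 1 10x Genomics 3′ library for *Kat2a* WT and 1 for *Kat2a* KO. *Kat2a* encodes a histone acetyltransferase that marks promoters, and the study asked how its loss changes transcript levels and their variation from cell to cell. All donors were *Kat2a* Flox/Flox C57Bl/6 mice given pIpC, which switches on Mx1-Cre, an interferon-driven recombinase carried by the KO donors (Mx1-Cre+/-) and absent from the WT donors (Mx1-Cre -/-). Their lineage-depleted marrow was taken 4 to 6 weeks later, transduced and put into lethally irradiated recipients. Terminal bone marrow of 5 WT and 4 KO leukemias was frozen, thawed, pooled by genotype and sorted for live cells that carry the YFP reporter of the fusion. A library was therefore a pool, the leukemias inside it carry no label, and no test between genotypes was possible.

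Splicing removes introns from transcripts. The *Snrp* genes encode proteins of the small nuclear ribonucleoproteins, the RNA-protein particles that recognise splice sites, and most of them form the Sm ring around the small nuclear RNA. The *Sf3* genes encode the SF3a and SF3b complexes, which hold the U2 particle on the branch point. *Srsf* proteins (SR proteins) bind exons and favour their inclusion, while *Hnrnp* proteins coat nascent transcripts, and many of them oppose inclusion, so the balance of both families sets many alternative exons. Genes of this machinery, among them *Sf3b1* and *Srsf2*, are known targets of mutation in human myeloid disease.

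Keeping cells in which at least 500 genes were detected gave 3866 cells with 11669427 UMIs in the WT-labelled library (median 2588.5 UMIs per cell) and 3545 cells with 7920256 UMIs in the KO-labelled library (median 1884). A UMI stands for 1 captured transcript, and CPM is the number of UMIs of a gene per 1e6 UMIs of the library. Because 3′ tags are counted once per transcript, CPM was not divided by transcript length. The libraries are called by their labels because the link between cell barcodes and genotype comes from the code published with the study, and *Kat2a* itself stood at 12.2 CPM in the WT-labelled library and 95.8 CPM in the KO-labelled library, against the labels. The study places the end of the *Kat2a* gene outside the excised part, so 3′ tags do not check the deletion. The libraries shared 28 barcodes, or 0.674% of cells. Among lists of other genes, S phase genes summed to 2115 CPM in the WT-labelled library and 2654 CPM in the KO-labelled library, mitotic genes to 2148 and 2601, stress genes to 5252 and 6169, mitochondrially encoded genes to 3737 and 4658, nuclear-retained RNAs to 3675 and 2873, and ribosomal protein genes to 158051 and 130571. Markers of these other lineages were higher in the KO-labelled library, from 279 to 583 CPM for erythroid, 20.8 to 135 for megakaryocyte, 88.4 to 180 for mast or basophil (*Prss34* at 0) and 197 to 318 for the 5 T or NK markers in the gene list, where *Nkg7* alone gave 2290 and 2512 UMIs and *Cd3d* 8 and 2. Granulocyte markers stood at 91058 and 87496 CPM, monocyte or macrophage markers at 2596 and 2407 and progenitor markers at 435 and 435, so granulocyte markers were by far the most abundant of these lists. The equal progenitor sums hide genes that went in opposite directions. *Hoxa9* was lower in the KO-labelled library (log2 ratio -0.58). *Cd34* had 372 UMIs in the WT-labelled library and 602 in the KO-labelled library, and *Gata2* 74 and 135, although the KO-labelled library held fewer UMIs in all. The part of these differences in the results that follow was not tested. Fewer cells of a state and less RNA per cell cannot be told apart in sums over a library.

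Each of 4 motifs was searched on both strands in the promoters of the members, taken from RefSeq on GRCm38.p6 as 250 bases before to 50 bases after each start. Promoters were found for 46 of the 52 genes, 63 in all, some of which overlap. The ETS motif CCGGAAG was in 33.3% of member promoters and in 8.86% of all 32851 promoters, CCAAT in 44.4% and 37.4%, the E-box CACGTG in 11.1% and 7.15%, and TATAAA in 11.1% and 13.6%. The median GC content was 61% in member promoters and 52.7% in all, and its part in these shares was not tested. A match is only these letters in this window. The promoters below are shown because *Hnrnpd* and *Hnrnpdl* are neighbours on the same strand of chromosome 5 whose levels differed between the libraries in opposite directions, while *Hnrnpa1* had the widest range over cell states and *Srsf5* one of the narrowest with the libraries pooled (in the KO-labelled library alone it was wider, 2.29-fold). Capitals mark the motifs, read 5′ to 3′ on the strand of the gene.
Hnrnpd (chr5:99978889-99979188, minus strand, an ETS match and an E-box): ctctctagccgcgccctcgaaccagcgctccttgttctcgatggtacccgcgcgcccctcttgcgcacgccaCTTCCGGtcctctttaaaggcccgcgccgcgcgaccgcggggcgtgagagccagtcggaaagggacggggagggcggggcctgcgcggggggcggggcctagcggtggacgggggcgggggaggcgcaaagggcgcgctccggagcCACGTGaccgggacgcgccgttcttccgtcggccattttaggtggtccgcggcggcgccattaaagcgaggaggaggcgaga
Hnrnpdl (chr5:100039173-100039472, minus strand, none of the motifs): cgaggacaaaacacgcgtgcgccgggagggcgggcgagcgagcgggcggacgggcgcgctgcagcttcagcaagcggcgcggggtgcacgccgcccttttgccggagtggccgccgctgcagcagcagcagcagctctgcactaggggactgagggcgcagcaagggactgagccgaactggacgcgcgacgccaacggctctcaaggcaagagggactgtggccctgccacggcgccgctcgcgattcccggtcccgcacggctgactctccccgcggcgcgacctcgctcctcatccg
Hnrnpa1 (chr15:103240147-103240446, plus strand, 4 CCAAT matches): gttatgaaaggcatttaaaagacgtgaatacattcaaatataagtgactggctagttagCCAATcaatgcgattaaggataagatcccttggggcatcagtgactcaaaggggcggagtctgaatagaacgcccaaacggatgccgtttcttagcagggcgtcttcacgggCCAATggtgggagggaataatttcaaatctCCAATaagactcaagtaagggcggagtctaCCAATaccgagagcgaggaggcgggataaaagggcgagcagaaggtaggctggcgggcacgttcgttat
Srsf5 (chr12:80945249-80945548, plus strand, 2 ETS matches): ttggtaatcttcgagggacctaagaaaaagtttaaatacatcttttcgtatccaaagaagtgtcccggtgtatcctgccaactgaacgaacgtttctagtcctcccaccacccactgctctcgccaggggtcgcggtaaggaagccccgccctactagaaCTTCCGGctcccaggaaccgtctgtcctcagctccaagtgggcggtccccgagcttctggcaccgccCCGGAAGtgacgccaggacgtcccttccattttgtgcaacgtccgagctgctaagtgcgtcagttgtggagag

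The members together took 12749 CPM in the WT-labelled library (95% Poisson interval 12684 to 12814) and 14246 CPM in the KO-labelled library (14163 to 14330), or 1.27% and 1.42% of all UMIs. The log2 ratio, KO over WT, was 0.16 (0.15 to 0.17). Intervals cover counting error only, since there was 1 library per genotype. The difference lay mostly in the *Hnrnp* genes (6433 and 7333 CPM, log2 ratio 0.19, 0.17 to 0.20) and the *Snrp* genes (2452 and 2835 CPM, 0.21, 0.18 to 0.23). Much of the *Hnrnp* difference came from *Hnrnpa3* alone, at 1293 and 1688 CPM, a gene whose level is uncertain for the reason given below. The *Srsf* genes (2715 and 2880 CPM, 0.09, 0.06 to 0.11) and the *Sf3* genes (1150 and 1198 CPM, 0.06, 0.02 to 0.10) differed less. The median log2 ratio of the 2737 genes detected in 10% or more of kept cells, here called the robust set, was 0.07, and relative to it the *Sf3* sum was not higher (-0.01). A sum gives more weight to abundant genes, and a median over genes does not. The median over the robust genes of a family was 0.22 for *Sf3*, 0.27 for *Snrp*, 0.10 for *Hnrnp* and -0.06 for *Srsf*.

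Of the 52 members, 45 were in the robust set. *Srsf4*, *Sf3a1*, *Sf3b3*, *Hnrnph3* and *Hnrnpa0* fell below it, with 277 to 682 UMIs each. *Srsf12* and *Snrpn* had 0 UMIs, which allows up to 0.257 CPM in the WT-labelled library and 0.379 CPM in the KO-labelled library (3 counts). The median log2 ratio over the 45 was 0.09, and 31 of them were above 0, beside 60.2% of the robust set. Past a ratio of 5 to 4, 7 members were higher in the KO-labelled library (15.6%, beside 17.5% of the robust set) and 3 were lower (6.67%, beside 12.2%). Past 1.5-fold there was 1 higher (3.54% of the robust set) and 0 lower (3.43%). In this setting the counts lie near or below the background. They moved with depth: at 1000 UMIs 12 members were higher (22.8% of the robust set) and 0 lower (13.3%), and in cells matched on total UMIs 21 were higher (28% of the robust set) and 0 lower (14.8%), with a median log2 ratio of 0.28 over members and 0.12 over the robust set.

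**Figure D1:**
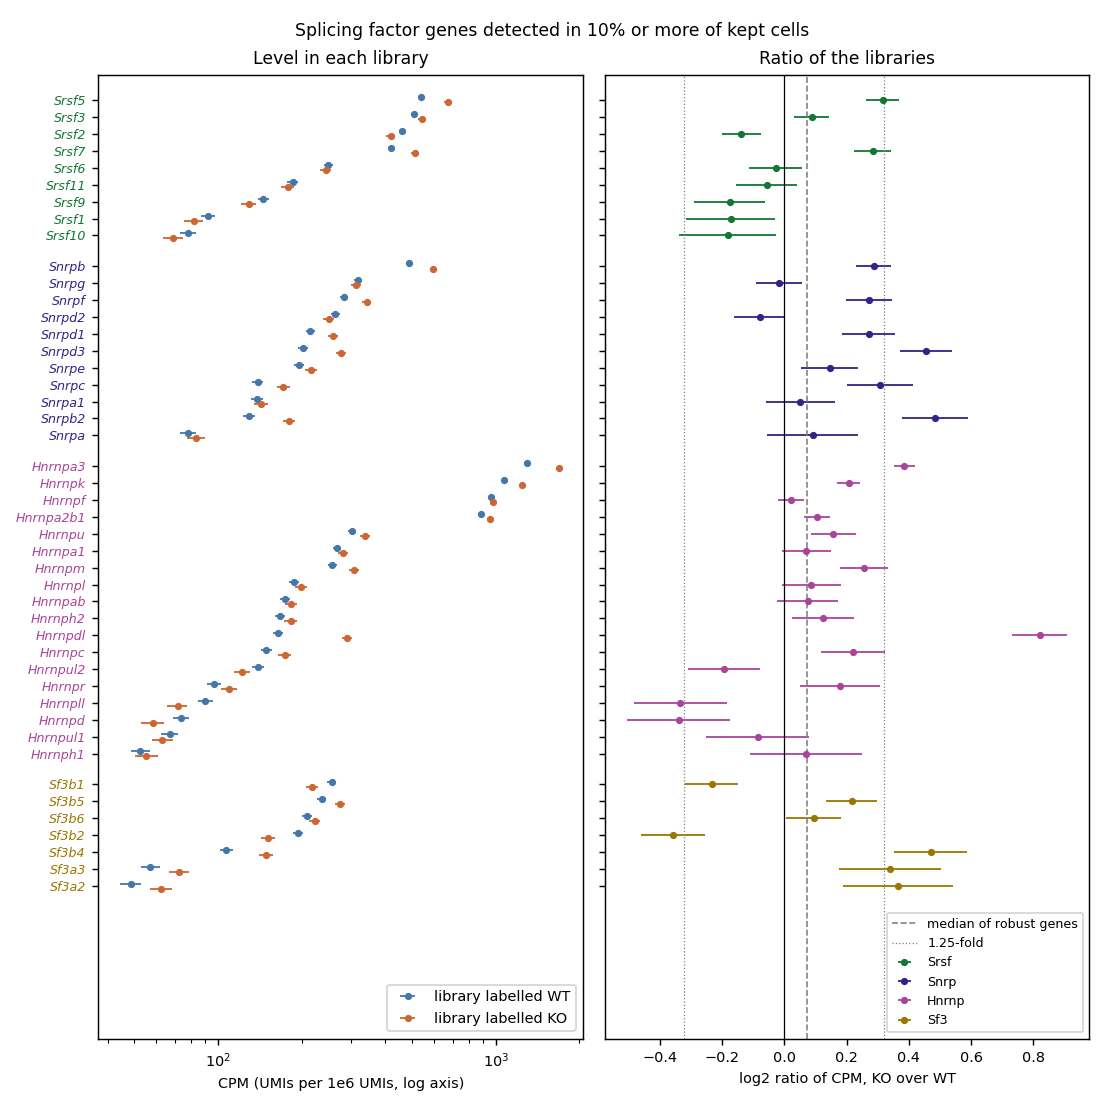
Level of the 45 robust members in CPM on a log axis (left, both libraries) and log2 ratio of KO over WT (right), with 95% counting intervals, ordered within each family by level in the WT-labelled library. *Hnrnpdl* lies apart at 0.82, 6 of the 9 *Srsf* genes lie below 0, and *Sf3* genes lie on both sides.

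Most *Snrp* genes had a higher CPM in the KO-labelled library, 9 of 11, beside 60.2% of the robust set. *Snrpb*, a core protein of the Sm ring and the most abundant *Snrp* gene, stood at 488 CPM in the WT-labelled library and 596 CPM in the KO-labelled library (log2 ratio 0.29, 0.23 to 0.34). *Snrpd3*, which closes the ring beside *Snrpb*, stood at 202 and 278 CPM (0.45, 0.37 to 0.54). *Snrpf*, another ring protein, stood at 284 and 343 CPM (0.27, 0.20 to 0.34). *Snrpd1* stood at 215 and 260 CPM (0.27, 0.19 to 0.36). Not all of the ring differed alike. *Snrpg* was at 318 and 314 CPM (-0.02, -0.09 to 0.06) and *Snrpd2* at 265 and 250 CPM (-0.08, -0.16 to 0.00), so both intervals include 0 (*Snrpd2* was chosen after its values were seen). *Snrpb2*, a protein of the U2 particle, had the largest ratio of the family, with 129 CPM in the WT-labelled library and 180 CPM in the KO-labelled library (0.48, 0.38 to 0.59).

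The *Sf3* genes differed from subunit to subunit. *Sf3a2* (48.4 and 62.4 CPM, log2 ratio 0.37, 0.19 to 0.54) and *Sf3a3* (57.1 and 72.2 CPM, 0.34, 0.18 to 0.50), both of the SF3a complex, were higher in the KO-labelled library. The remaining SF3a gene, *Sf3a1*, is below the robust set and stood at 16.5 and 17.2 CPM, with an interval that includes 0 (0.05, -0.27 to 0.38). Within SF3b, *Sf3b4*, which contacts the transcript upstream of the branch point, stood at 107 CPM in the WT-labelled library and 148 CPM in the KO-labelled library (0.47, 0.35 to 0.59). *Sf3b5* stood at 236 and 274 CPM (0.22, 0.14 to 0.30). *Sf3b6* stood at 209 and 223 CPM (0.09, 0.01 to 0.18). *Sf3b3*, below the robust set, stood at 25.5 and 31.3 CPM (0.30, 0.05 to 0.55). By contrast *Sf3b1*, the scaffold that clamps the branch point, stood at 256 and 218 CPM (-0.23, -0.32 to -0.15), and *Sf3b2*, which binds *Sf3b4*, at 194 and 151 CPM (-0.36, -0.46 to -0.26). The sum of the genes named *Sf3b*, including *Sf3b3*, was 1028 CPM in the WT-labelled library and 1047 CPM in the KO-labelled library (0.03, -0.01 to 0.07). The opposite differences of these genes thus left a sum whose interval crosses 0. It is not a sum over the whole complex, since *Phf5a*, an SF3b subunit outside the symbol rule, is not in it. *Phf5a* stood at 110 CPM in the WT-labelled library and 134 CPM in the KO-labelled library (0.29, 0.17 to 0.40).

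*Srsf5* was the most abundant SR protein gene, at 540 CPM in the WT-labelled library and 672 CPM in the KO-labelled library (log2 ratio 0.32, 0.26 to 0.37), just short of the ratio of 5 to 4. It was 0.14 among cells with 1000 or more genes. *Srsf7* stood at 421 and 512 CPM (0.28, 0.22 to 0.34), and *Srsf3*, the smallest SR protein, at 510 and 542 CPM (0.09, 0.03 to 0.14). The other 6 robust *Srsf* genes were lower in the KO-labelled library, between -0.18 and -0.03 on the log2 scale. Among them *Srsf9* stood at 146 and 129 CPM (-0.18, -0.29 to -0.06) and *Srsf1*, the founding SR protein, at 91.9 and 81.6 CPM (-0.17, -0.31 to -0.03). The direction of *Srsf1* depended on the cells used, since it was 0.01 among cells with 1000 or more genes and 0.12 in cells matched on total UMIs.

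*Hnrnpdl*, an AU-rich element binding protein related to *Hnrnpd*, showed the largest ratio of all members. It stood at 164 CPM in the WT-labelled library (157 to 172) and 291 CPM in the KO-labelled library (279 to 303), a log2 ratio of 0.82 (0.73 to 0.91), and had a UMI in 31.2% and 37.3% of cells. Its neighbour *Hnrnpd*, 54.6 kb away, stood at 73.4 and 58.1 CPM (-0.34, -0.51 to -0.17). *Hnrnpll*, known from exon skipping in activated lymphocytes, stood at 90.1 and 71.5 CPM (-0.33, -0.48 to -0.18). In all 12 clusters of cells described below *Hnrnpdl* was higher in the KO-labelled library, with log2 ratios of 0.12 to 1.01, and *Hnrnpd* was lower in 11 of them. Among the most abundant genes *Hnrnpa3* stood at 1293 and 1688 CPM (0.38, 0.35 to 0.42), *Hnrnpk*, a poly(C) binding protein, at 1074 and 1239 CPM (0.21, 0.17 to 0.24) and *Hnrnpf* at 964 and 979 CPM (0.02, -0.02 to 0.06). *Hnrnpa1* stood at 268 and 281 CPM (0.07, -0.01 to 0.15), *Hnrnpab* at 174 and 183 CPM (0.08, -0.02 to 0.17) and *Hnrnph1* at 52.5 and 55.2 CPM (0.07, -0.11 to 0.25), with intervals that include 0. The first 2 moved with depth, since in cells matched on total UMIs *Hnrnpa1* was at 0.45 and *Hnrnpab* at 0.39, while *Hnrnpa1* was at -0.01 at 1000 UMIs. Log2 ratios of the remaining 9 robust *Hnrnp* genes lay between -0.19 and 0.26. The levels of *Hnrnpa3*, *Hnrnpk* and *Hnrnpf* are uncertain, because 42.5% of the 60-base words in the last 400 bases of *Hnrnpa3* transcripts, 29.1% of those of *Hnrnpk* and 38.4% of those of *Hnrnpf* occur in other annotated genes, mostly unnamed gene models (31 genes for *Hnrnpa3*). The same holds for *Snrpc* (39.3%), *Snrpa* (16.5%), *Hnrnph2* (11.1%), *Snrpe* (10.6%), *Hnrnpc* (7.39%), *Hnrnpr* (5.98%), *Snrpd1* (3.34%) and *Hnrnpa2b1* (0.0823%).

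Other splicing genes were read from a list of 107 names, 60 of them robust. Their sum was 11289 CPM in the WT-labelled library and 12601 CPM in the KO-labelled library, a log2 ratio of 0.16 (0.15 to 0.17) and close to that of the members. Past a ratio of 5 to 4, 12 of the 60 stood higher in the KO-labelled library and 10 stood lower, beside 17.5% and 12.2% of the robust set. All 8 *Lsm* genes, which form a ring related to the Sm ring, were robust, and 7 of them were above 0 (sum 1307 and 1589 CPM, 0.28, 0.25 to 0.32). The 4 robust genes of Sm ring assembly were all above 0 (whole list of 10, 497 and 576 CPM, 0.21, 0.16 to 0.27). The extremes among the robust genes were *Cirbp*, a cold-inducible RNA binding protein, at 690 and 1156 CPM (0.74), and *Prpf38b* at 62.0 and 36.5 CPM (-0.77). *Son*, *Srrm1* and *Srrm2*, large proteins of nuclear speckles, were named after their values were seen and were all lower (-0.71, -0.42 and -0.59). Kinases of SR proteins summed to 202 and 185 CPM (-0.13, -0.22 to -0.03), and *Clk4*, the 1 robust gene of the 6, stood at 55.7 and 58.1 CPM.

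Cell-to-cell variation was compared at equal depth, with every cell of at least 1000 UMIs thinned to 1000 UMIs (3800 and 3351 cells). The coefficient of variation (CV, SD over mean) was higher in the KO-labelled library for 21 of 45 members, beside 55.2% of the robust set, and the median log2 ratio of CV was -0.05 over members and 0.02 over the robust set. Families differed: the CV was higher in the KO-labelled library for 8 of 9 *Srsf*, 2 of 11 *Snrp*, 9 of 18 *Hnrnp* and 2 of 7 *Sf3* genes. The *Srsf* count depended on the setting, with 6 of 9 at 1500 UMIs and 4 of 9 in cells matched on total UMIs. The count over all members was 16 and 12 there, beside 56.6% and 53.6% of the robust set. The CV moved with the level. At 1000 UMIs 31 members had a higher mean in the KO-labelled library, and 24 of these had a lower CV, while all 14 members with a mean that was not higher had a higher CV (in the robust set 68.7% and 92.0%). The Fano factor (variance over mean), which is 1 for counting alone, was higher in the KO-labelled library for 33 members (73.3%, beside 74.4% of the robust set). At the cells' own depth, on counts scaled to 10000 per cell, the CV was higher for 41 of 45 members, beside 87.7% of the robust set. The median log2 ratio there was 0.16 over members and 0.21 over the robust set. That setting also scales counts and includes cells under 1000 UMIs. In cells matched on total UMIs at their own depth the median was -0.12 over members and 0.02 over the robust set.

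**Figure D2:**
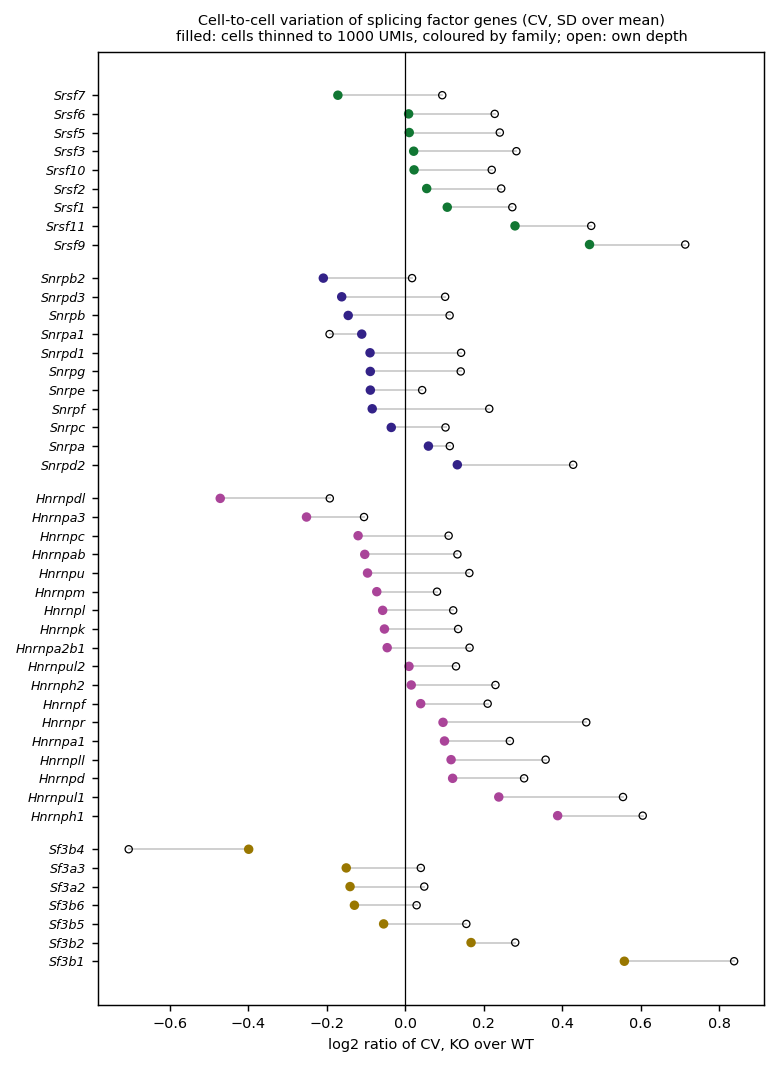
log2 ratio of CV, KO over WT, for the 45 robust members with cells thinned to 1000 UMIs (filled, coloured by family) and at each cell's own depth on scaled counts (open). In all, 24 filled points lie below 0, and open points lie to the right of filled points except for *Sf3b4* and *Snrpa1*.

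*Sf3b1* had the largest log2 ratio of CV, 0.56, with a CV of 2.13 in the WT-labelled library and 3.13 in the KO-labelled library, and the highest Fano factor by the mean of both libraries (1.20 and 2.22). Next were *Srsf9* (0.47, CV 2.71 and 3.75, Fano factor 1.17 and 1.89) and *Hnrnph1*, which regulates splicing through G-rich runs (0.39, CV 4.82 and 6.30, Fano factor 1.04 and 2.00). On the other side lay *Hnrnpdl* (-0.47, CV 2.95 and 2.13, Fano factor 1.21 and 1.35) and *Sf3b4* (-0.40, CV 3.92 and 2.97, Fano factor 1.74 and 1.23). The lower CV of *Hnrnpdl* in the KO-labelled library went with a higher level in the thinned cells (0.14 and 0.30 UMIs per cell). Its Fano factor was higher there, not lower. By the mean of both libraries, the lowest Fano factors were those of *Sf3a2* (1.04 and 1.10), *Hnrnpd* (1.10 and 1.08) and *Srsf1* (1.08 and 1.12), close to counting alone. A few cells carried much of the higher values. Without the 10 highest cells of each library the log2 ratio of CV was 0.18 for *Sf3b1*, 0.17 for *Srsf9*, 0.00 for *Hnrnph1* and -0.13 for *Sf3b4*, while *Hnrnpdl* stayed at -0.46. At 1500 UMIs *Sf3b1* was at 0.07 and *Hnrnph1* at -0.05.

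Single cells with an isolated high count were seen in both libraries. A cell with at least 10 UMIs of a gene and at least 2 times the next highest cell was found for 3 members in the WT-labelled library, beside 14.5% of the robust set, and for 8 in the KO-labelled library, beside 19.5%. These were 11 different cells. In the KO-labelled library a cell with 4150 UMIs in all held 45 UMIs of *Hnrnpa1*, with 18 in the next, a cell with 1355 UMIs held 16 of *Hnrnph1*, with 4 in the next, and a cell with 6388 UMIs held 32 of *Snrpc*, with 8 in the next. In the WT-labelled library the 3 were *Hnrnph2* (17 UMIs, next 8), *Srsf1* (16, next 6) and *Sf3b2* (17, next 8). The highest count of *Sf3b1*, 33 UMIs, came from a cell of the KO-labelled library with 1147 UMIs in all, with 19 in the next.

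The members varied together from cell to cell. At 1000 UMIs a cell held 11.7 UMIs of the members in the WT-labelled library (SD 5.18) and 13.5 in the KO-labelled library (SD 5.46), with 5th and 95th percentiles of 4 and 21 UMIs and of 6 and 23 UMIs. The variance of this sum was 1.88 times the sum of the single-gene variances in the WT-labelled library and 1.65 times in the KO-labelled library. By family the ratio was highest for *Hnrnp* (1.42 and 1.31) and *Snrp* (1.32 and 1.28) and close to 1 for *Sf3* (1.03 and 1.0). The ratio also depends on the number of genes and on their counts. In the WT-labelled library a cell held 5.92 UMIs of the 20 *Hnrnp* genes and 1.10 of the 9 *Sf3* genes. The part of this in the order of the families was not tested. The Fano factor of the sum was 2.29 and 2.21.

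Levels ranged more widely over cell states than between the libraries. Cells were grouped by k-means into 12 clusters on genes that left out the members, so that the clusters did not use them. Clusters 4 and 7 were granulocyte-like by their markers (*Ltf*, *Mmp9*; *Camp*, *Ngp*), and the others are given by number. The members summed highest in cluster 3, at 17025 CPM in the WT-labelled library and 18342 CPM in the KO-labelled library. The leading genes of cluster 3 over both libraries pooled were *Car1*, *Ppbp*, *Mcpt8* and *Pf4*, but in the whole WT-labelled library *Car1* had 0 UMIs (93 in the KO-labelled library), *Pf4* 46 (633), *Ppbp* 43 (141) and *Mcpt8* 800 (994). The members were next highest in cluster 10, led by the kinetochore gene *Cenpp* (15921 and 16562 CPM). The lowest sums were in cluster 4 (6956 and 8013 CPM) and in cluster 12, led by the *Stfa* genes (7884 and 7842 CPM). The highest cluster was 2.45 times the lowest in the WT-labelled library and 2.34 times in the KO-labelled library, and the order of the 12 clusters was alike (Spearman rho 0.97, a description over clusters of the same libraries). Within clusters the sum was higher in the KO-labelled library in 10 of 12, by at most 0.24 on the log2 scale in cluster 7, and in clusters 11 (-0.01) and 12 (-0.01) it was not. The libraries differed in their share of cells per cluster. Clusters 4 and 12 held 12.5% and 8.82% of the WT-labelled cells and 5.25% and 3.36% of the KO-labelled cells. Clusters 1, 2 and 7 held 4.91%, 5.66% and 3.75% against 15.8%, 13.9% and 13.2%. Clusters 3 and 10 held 9.83% and 7.04% against 8.91% and 7.76%. With both libraries weighted to the same clusters the log2 ratio of the sum was 0.11. The median log2 ratio was then 0.06 over members and 0.07 over the robust set. A cluster held 119 to 561 cells of a library.

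**Figure D3:**
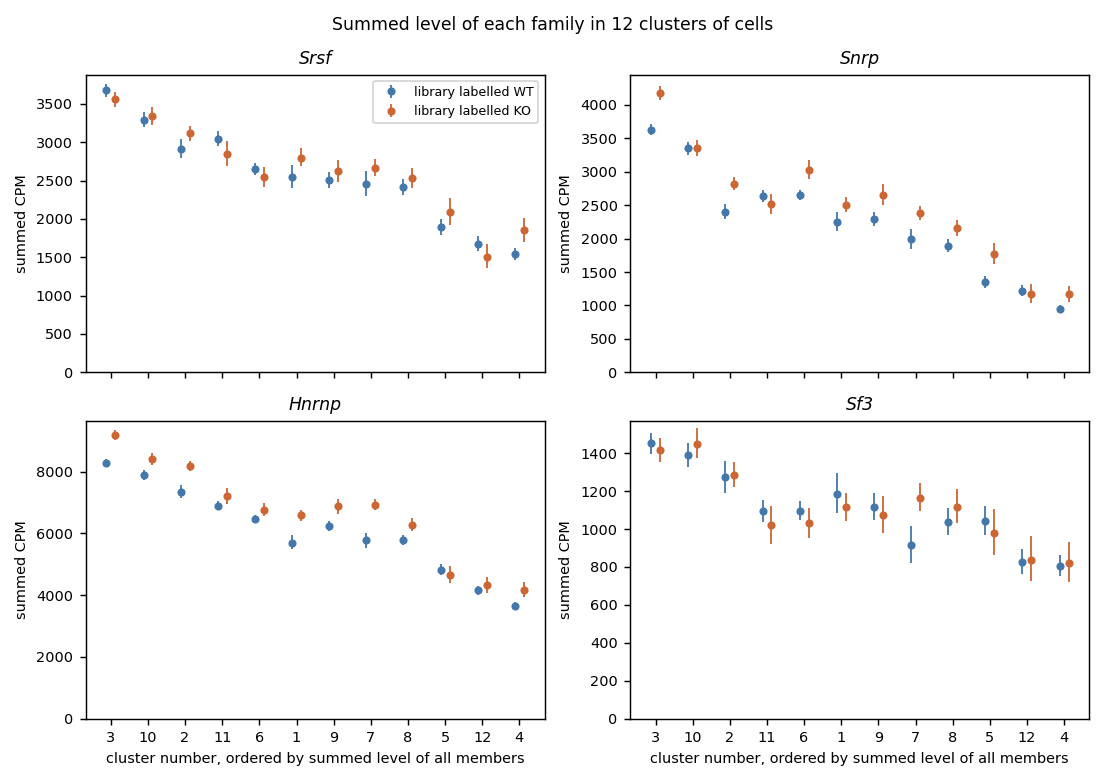
Summed CPM of each family in 12 clusters and both libraries with 95% Poisson intervals, with clusters ordered by the summed level of all members. *Snrp* genes show the steepest range and *Sf3* genes the flattest.

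The families differed in how far they followed cell state. The highest cluster exceeded the lowest 3.83 times for *Snrp* genes in the WT-labelled library and 3.58 times in the KO-labelled library, 2.38 and 2.36 times for *Srsf*, 2.26 and 2.20 times for *Hnrnp*, and 1.80 and 1.77 times for *Sf3*. Single genes ranged further. *Hnrnpa1*, which shuttles mature transcripts to the cytoplasm, ranged from 34.5 CPM in cluster 4 to 513 CPM in cluster 3 in the WT-labelled library and from 47.1 to 566 CPM in the KO-labelled library, a 14.3-fold range with the libraries pooled. *Snrpd1* ranged from 47.0 to 349 CPM and from 47.1 to 386 CPM (7.68-fold pooled). *Snrpf* ranged from 65.8 to 484 CPM and from 108 to 589 CPM (6.97-fold), and *Hnrnpab* from 58.5 to 278 CPM and from 47.1 to 257 CPM (4.82-fold). The lowest levels in the KO-labelled library, all in cluster 4, rest on few UMIs. They were 14 each for *Hnrnpa1*, *Snrpd1* and *Hnrnpab* and 32 for *Snrpf*, so these ranges are imprecise. At the other end lay *Hnrnph2* (1.54-fold), *Sf3b6* (1.62-fold) and *Srsf5* (1.62-fold), again with the libraries pooled. By library the range of *Srsf5* was 1.34-fold in the WT-labelled library, the narrowest of the robust members, and 2.29-fold in the KO-labelled library. *Srsf5* did not follow the sum: in the KO-labelled library it was highest in cluster 1, led by hemoglobin and MHC class II genes, at 940 CPM, and in the WT-labelled library in cluster 5 at 634 CPM. Of the robust members 30 were highest in cluster 3 in the WT-labelled library and 26 in the KO-labelled library. *Hnrnpa3*, *Hnrnpdl*, *Sf3b4* and *Srsf7* were higher in the KO-labelled library in every cluster (chosen after their values were seen), and 0 members were lower in every cluster. For *Sf3b4* the difference was very small in cluster 8 (86.4 and 86.7 CPM). The share of all robust genes that meets each of these counts was not computed, so they are not read as particular to the members. Cluster 3 also had the deepest cells (median 4750 and 3830 UMIs). The CV of single members within clusters was close in both libraries, with a median log2 ratio between -0.07 and 0.06 and above 0 in 10 of 12 clusters. The Fano factor of the sum differed more. It was higher in the KO-labelled library in clusters 1, 2, 5, 6, 7, 8, 9, 10 and 12, as in cluster 5 (1.34 and 1.81). In clusters 3, 4 and 11 it was lower, as in cluster 11 (1.42 and 1.13).

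**Figure D4:**
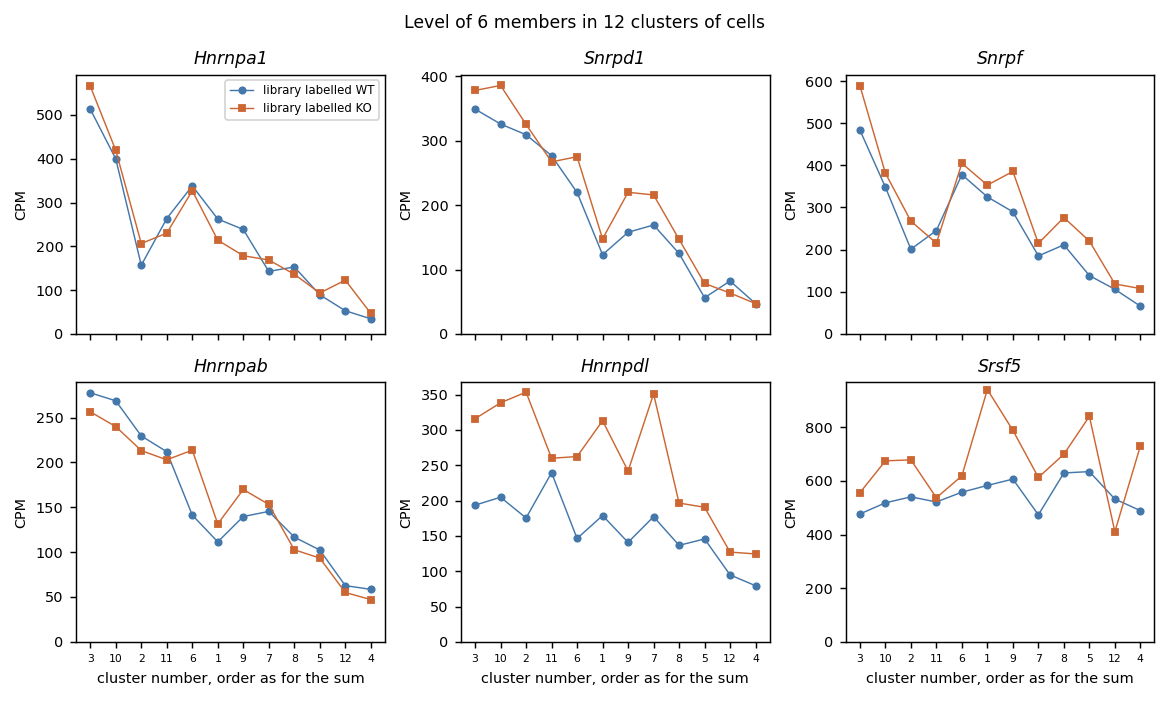
CPM of 6 members in 12 clusters, in the order of the summed level of all members, in the WT-labelled library (circles) and KO (squares). *Hnrnpa1*, *Snrpd1*, *Snrpf* and *Hnrnpab* are highest at the left and lowest at or near the right end, *Hnrnpdl* is higher in the KO-labelled library in each cluster, and *Srsf5* is nearly flat in the WT-labelled library.

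The summed level went with cell cycle genes and with depth. Over the 12 clusters it correlated with the S phase list (Spearman rho 0.85 in the WT-labelled library and 0.92 in the KO-labelled library) and with the mitotic list (0.85 and 0.90), where the points share libraries and depth. When cells at 1000 UMIs were ordered by S phase UMIs, the lowest tertile (1 of 3 equal groups of cells) held 9564 CPM and the highest tertile 14703 CPM in the WT-labelled library, against 11168 and 16448 CPM in the KO-labelled library. By mitotic UMIs the lowest and highest tertiles held 10249 and 14288 CPM, and 11962 and 15711 CPM. Such tertiles are ranges, not cell types, and 228 to 474 cells lay at the score where the highest tertile begins. They were cut within each library, so the same tertile spans unlike scores. The highest began at 2 S phase UMIs in the WT-labelled library and 3 in the KO-labelled library, and at 1 and 2 mitotic UMIs. With 2358 of 3800 and 1758 of 3351 cells at 0 mitotic UMIs, the lowest and middle mitotic tertiles both hold cells at 0. By total UMIs at their own depth, the lowest tertile held 9072 CPM (median 1537 UMIs) and the highest 14445 CPM (4504) in the WT-labelled library, against 11905 CPM (1247.5) and 15509 CPM (3141) in the KO-labelled library. The highest tertile by total UMIs began at 3386 UMIs in the WT-labelled library and at 2308 in the KO-labelled library. The library labelled KO was higher in each of these tertiles, although its cells were shallower, but the tertiles do not match cells between the libraries. In 2757 cells of each library matched on total UMIs the log2 ratio of the sum was 0.30. The part of the cell cycle and of depth in the library difference was not tested.

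**Figure D5:**
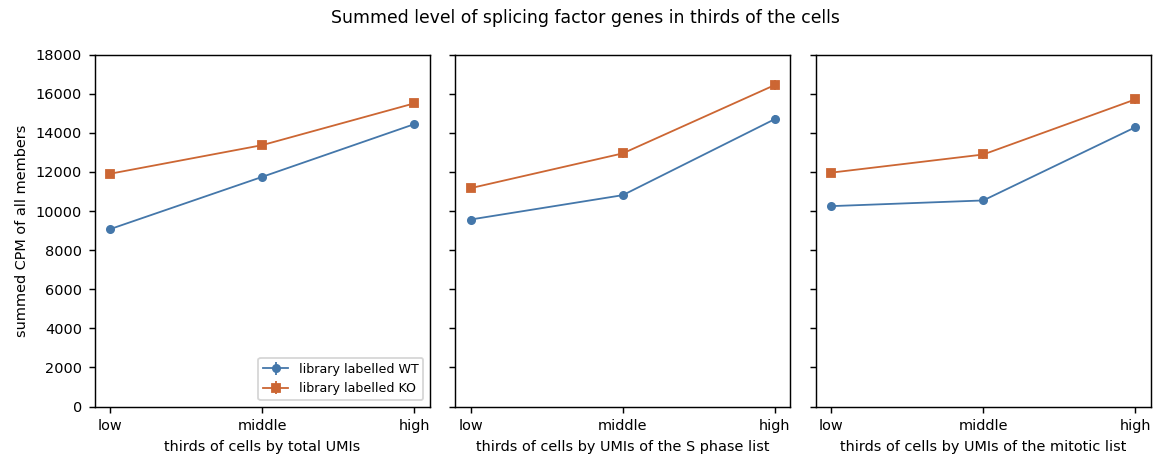
Summed CPM of all 52 members in tertiles of the cells of each library, ordered by total UMIs (left), S phase UMIs (middle) and mitotic UMIs (right), with 95% Poisson intervals. In every panel the sum is higher in the highest tertile than in the lowest and higher in the KO-labelled library in each tertile.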

How the data were processed

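Live YFP+ cells of pooled *MLL-AF9* leukemias were captured on 10x Genomics 3′ v1 chips, 1 library per genotype, aiming at 6000 cells each. The deposited values are UMI counts per gene and cell, which the authors made with Cell Ranger (version 1.3.1 in the submitters' processing notes, another version in the methods) on mm10, not normalized. Both libraries lie in 1 matrix (4069 and 4240 cells), and barcode endings were assigned to genotypes from the published analysis code. The members and gene lists were chosen with earlier results of these data known.

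Cells with 500 or more genes (the study's limit) and, for the robust set, genes with a UMI in 10% of these cells were kept. UMIs were summed per library and scaled to CPM, with exact Poisson intervals (95%) and exact conditional binomial intervals for ratios. Thinning to 1000 UMIs left out 66 and 194 cells. Clusters came from k-means (12 clusters, 10 starts, 20 principal components) on 778 variable genes without the members (scanpy 1.11.5, scikit-learn 1.9.0). A cluster was named where 3 markers were raised 1.5-fold and 2 were among its 10 leading genes. That a marker of another class among these leaves it unnamed was decided after seeing the clusters, and kept clusters 1, 3 and 6 unnamed. Named members were the 3 most abundant of each family, those past a ratio of 5 to 4, and extremes of CV, Fano factor and cluster range. *U2af1l4* matches 2 identifiers. Scrublet marked 5 cells (0.0602%), too few to be taken as working, so doublets were kept. The promoters shown, the rule for isolated high counts and the tally of CV by level were chosen after values were seen. Methods were tested on simulated data. There all cells of a library were drawn from the same profile, without cell states or variation beyond counting error. The simulation therefore does not show how the intervals and CV ratios behave where real counts vary more. Positions are those of GENCODE M21 (GRCm38).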

Additional observations from a re-analysis of the deposited data

Results flagged for a closer look

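Cells with under 500 genes, which enter no comparison above, also held UMIs of the splicing factor genes, far above the limit that a count of 0 allows. They summed to 6105 CPM (5785 to 6438) in 203 cells of the WT-labelled library and to 8596 CPM (8375 to 8822) in 695 cells of the KO-labelled library, below the levels in kept cells. By family, *Hnrnp* genes stood at 3182 and 4366 CPM in the WT-labelled library and the KO-labelled library, *Srsf* at 1398 and 1915, *Snrp* at 825 and 1391 and *Sf3* at 699 and 925.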

How the results depend on the processing

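No paired analysis was possible because neither genotype was replicated, so no replicate could be left out either. The log2 ratios of the sums kept their direction except for *Sf3* relative to the median of the robust genes, but their size moved with depth and scaling. With every deposited cell the log2 ratio was 0.13 for all members, 0.061 for *Srsf*, 0.17 for *Snrp* and 0.16 for *Hnrnp*. With cells of 1000 or more genes the log2 ratio was 0.25 for *Snrp*. At 1000 UMIs per cell the log2 ratio was 0.21 for all members, 0.15 for *Srsf*, 0.26 for *Snrp*, 0.24 for *Hnrnp* and 0.17 for the median over robust members. At 1500 UMIs per cell the log2 ratio was 0.23 for all members, 0.14 for *Srsf*, 0.30 for *Snrp*, 0.27 for *Hnrnp*, 0.10 for *Sf3* and 0.22 for the median over robust members. In cells matched on total UMIs the log2 ratio was 0.30 for all members, 0.22 for *Srsf*, 0.41 for *Snrp*, 0.32 for *Hnrnp*, 0.13 for *Sf3* and 0.28 for the median over robust members. Without ribosomal protein and mitochondrially encoded genes in the total the log2 ratio was 0.12 for all members, 0.040 for *Srsf*, 0.16 for *Snrp*, 0.14 for *Hnrnp*, 0.015 for *Sf3* and 0.050 for the median over robust members. As a mean over cells of scaled counts the log2 ratio was 0.21 for all members, 0.15 for *Srsf*, 0.28 for *Snrp*, 0.23 for *Hnrnp* and 0.16 for the median over robust members. With clusters weighted equally the log2 ratio was 0.11 for all members, 0.047 for *Srsf*, 0.17 for *Snrp*, 0.13 for *Hnrnp*, 0.0061 for *Sf3* and 0.061 for the median over robust members. Relative to the median of the robust genes the log2 ratio was 0.086 for all members, 0.011 for *Srsf*, 0.14 for *Snrp*, 0.11 for *Hnrnp*, -0.015 for *Sf3* and 0.021 for the median over robust members. The 7 members higher by more than 5 to 4 became 12 at 1000 UMIs (22.8% of the robust set), 14 at 1500 UMIs (21%), 21 in matched cells (28%), 12 as a mean over cells (22.6%), 4 relative to the robust median (11.4%) and 1 at 1.5-fold (3.54%). The 3 members past the limit lower became 0 at 1000 UMIs (13.3%), 1 at 1500 UMIs (14.1%), 0 in matched cells (14.8%), 1 as a mean over cells (12.5%), 1 among genes detected in 20% of cells and 0 at 1.5-fold. The median CV ratio (log2), -0.05, was -0.12 in matched cells and turned to 0.16 at own depth, 0.090 for the Fano factor and 0.012 within clusters. The fold between the highest and lowest cluster (2.45 and 2.34) was 1.39 and 1.31 when tertiles by mitotic UMIs took the place of clusters. *Srsf1* turned to 0.0071 in cells of 1000 or more genes and 0.12 after matching. *Hnrnpdl* stayed between 0.63 and 1.10, *Sf3b4* between 0.29 and 0.52 and *Sf3b2* between -0.43 and -0.27, while *Hnrnpll* lay between -0.43 and -0.09, in all alternatives run. The cause of these changes was not tested. Depth limits the genes below the robust set and the variation of members with a Fano factor near 1.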
